A study of Arabidopsis thaliana with 16 samples.

Results

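Genes of DNA replication and S phase were followed across 4 genotypes of Arabidopsis thaliana as a set of 35 loci. The set is a list of loci drawn up by function from the 33602 loci to which the transcript models of the count table were summed. The 6 subunits of the MCM helicase are MCM2 (AT1G44900), MCM3 (AT5G46280), MCM4 (AT2G16440), MCM5 (AT2G07690), MCM6 (AT5G44635) and MCM7 (AT4G02060). The 7 genes of origin recognition and licensing are ORC1A (AT4G14700), ORC1B (AT4G12620), ORC2 (AT2G37560), ORC3 (AT5G16690), ORC6 (AT1G26840), CDC6 (AT2G29680) and CDT1A (AT2G31270). CDC45 (AT3G25100) stands with the 4 GINS genes PSF1 (AT1G80190), PSF2 (AT3G12530), PSF3 (AT1G19080) and SLD5 (AT5G49010), and the polymerase gene ICU2 (AT5G67100) with PCNA1 (AT1G07370) and PCNA2 (AT2G29570). Nucleotide supply is represented by RNR1 (AT2G21790), RNR2A (AT3G23580), TSO2 (AT3G27060) and TK1A (AT3G07800), and chromatin assembly factor 1 by FAS1 (AT1G65470), FAS2 (AT5G64630) and MSI1 (AT5G58230). The remaining genes encode the cyclins CYCA3;1 (AT5G43080) and CYCA3;2 (AT1G47210) and the transcription factors E2FA (AT2G36010), E2FB (AT5G22220), E2FC (AT1G47870), DPA (AT5G02470) and DPB (AT5G03415).

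Polyadenylated RNA was sequenced from the lower stem and rosette region that bears the axillary meristems, after leaves, roots and the elongated upper stem had been cut away from plants with a bolt shorter than 1 cm. The 4 genotypes were Col-0 wild type (WT), d14-7, ckx3 ckx5 and scl28, with 4 libraries each and no other treatment. What kind of lesion each mutant carries is not stated in the labels. Each library pooled tissue of 2 to 3 plants, and the 4 samples with the best RNA integrity were taken of 5 collected per genotype. WT, d14-7 and ckx3 ckx5 plants were harvested at 23 days after sowing and scl28 plants at 25 days, so that genotype and age cannot be told apart for scl28.

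A chromosome is copied once in each cell cycle. The origin recognition complex, CDC6 and CDT1 load the MCM helicase onto origins before S phase. CDC45 and the GINS complex then switch the helicase on. Polymerase alpha and the sliding clamp PCNA both take part in the DNA synthesis that follows. Ribonucleotide reductase and thymidine kinase supply deoxynucleotides, chromatin assembly factor 1 places histones on the new DNA, A3-type cyclins act around the start of S phase, and E2F factors, paired with DP proteins and held back by the retinoblastoma-related protein, switch on many of these genes. In a shoot, cells in S phase sit mainly in meristems and young organs.

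Sites of the kind that E2F and DP factors are known to bind were frequent in front of these genes. The letters TTTCCCGC, TTTCGCGC, TTTGCCGC and TTTGGCGC were searched on both strands, from 250 bases before to 50 bases after the gene start in RefSeq's TAIR10.1 annotation, and 13 of the 35 genes (37.1%) held at least 1 match, against 483 of 27443 protein-coding genes (1.76%). Among the other replication genes described below, 15 of 54 windows held a match (27.8%), so such sites are not particular to this set. Of the 6 MCM genes 5 held a match, whereas the 5 E2F and DP genes and both CYCA3 genes held none. At least 2 separate matches stood before PSF2, ICU2 and FAS1, which is 8.57% of the set against 0.0547% of all protein-coding genes. Within the 50 bases just before the start, 10 of the 35 genes had a match (28.6%), against 0.452% of all genes. The MCM, ICU2, PSF2, FAS2 and RNR1 sites are shown because these genes are described below and the sites together show each variant found in the set. TTTGCCGC matched in 0 of the 35 genes. CDC6, PCNA1, PCNA2 and SLD5, which are also described below, held no match. Each is a window of 30 bases of the TAIR10.1 genome, read 5′ to 3′ on the strand of the gene with the match in capitals, and GCGGGAAA and GCGCCAAA are the letters TTTCCCGC and TTTGGCGC as they read on the opposite strand.
MCM2 (chr1:16970189-16970218, plus): tggcgccaataTTTCCCGCctaatcgacga
MCM3 (chr5:18773858-18773887, minus): ggaaatcaaacGCGCCAAAcaagcgcgtag
MCM4 (chr2:7130746-7130775, minus): cagtaataatgGCGCCAAAatcaagtgaag
MCM5 (chr2:3527501-3527530, minus): cggcccatcagTTTCCCGCcacattgttcc
MCM6 (chr5:18010695-18010724, minus): tatactttttaGCGGGAAAatgttagagga
ICU2 (chr5:26776872-26776901, plus): gcaaatggataGCGCCAAAatcgtgtcgat
ICU2 (chr5:26776891-26776920, plus): atcgtgtcgatTTTCCCGCcatctccattt
PSF2 (chr3:3974448-3974477, minus): agttattttagTTTCCCGCtacactatcat
PSF2 (chr3:3974425-3974454, minus): ctatcatcggaTTTCCCGCcatcgtagaga
FAS2 (chr5:25833144-25833173, plus): ggagactactaTTTCGCGCccaaatgatcc
RNR1 (chr2:9293260-9293289, plus): cctagaagctgGCGGGAAAatcccaaaact
The first base of the match lay 14 bases before the gene start in MCM2, 19 in MCM5, 35 in MCM4, 46 in MCM6 and 170 in MCM3. In ICU2 the pair of matches began 70 and 51 bases before the start, in PSF2 26 and 3 bases and in FAS2 10 bases. In RNR1 the match began 11 bases into the transcribed sequence. Of the 13 genes with a match, 10 rose in d14-7 by the edgeR test used throughout, with a median log2 fold change of 0.51, and of the 22 without one, 9 rose, with a median of 0.36, where 18.1% of all loci were higher. In the ckx3 ckx5-labelled libraries 2 of the 13 and 4 of the 22 rose, with medians of 0.29 and 0.28 (13.6% of all loci higher), and in scl28 1 and 3 rose, with medians of 0.31 and 0.24 (9.3% higher). The difference between genes with and without a match was not tested. A match is a description of the letters in this window and was not tested as a site of binding.

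Sequencing depth was 24334925 to 36735056 counts per library, and all 35 genes passed the filter on low counts among 20947 loci tested. Levels are given as CPM, the count of a gene scaled to library size, with the sizes adjusted by edgeR's trimmed-mean factors. Replicates are separately pooled plants. The targeted gene SCL28 stood at 15.5 ± 1.95 CPM (SD, n = 4) in scl28 and 36.5 ± 8.73 in WT, and D14 at 30.5 ± 2.74 in d14-7 and 41.2 ± 2.08 in WT. CKX3 went against its label, with 1.73 ± 0.220 CPM in the ckx3 ckx5-labelled libraries and 0.339 ± 0.298 in WT, and CKX5 was at 2.83 ± 0.955 and 3.33 ± 1.87 CPM. These are therefore called the ckx3 ckx5-labelled libraries.

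Per length, TSO2, both clamp genes, RNR1 and MSI1 stood highest. In RPKM, which is CPM divided by exon length in kilobases, WT held TSO2, a small subunit of ribonucleotide reductase, at 78.9 ± 22.3, PCNA1 at 43.8 ± 10.2, PCNA2 at 39.8 ± 11.0, RNR1, the large subunit of the reductase, at 35.5 ± 13.0 and MSI1 at 32.5 ± 3.77 (SD, n = 4). The other genes of nucleotide supply were lower, RNR2A at 19.0 ± 5.31 and TK1A at 15.5 ± 3.31. The MCM genes lay between 8.67 (MCM6) and 19.5 RPKM (MCM7). The licensing genes ran, overlapping these, from 0.939 ± 0.320 RPKM for ORC1A and 1.85 ± 0.630 for CDC6 to 10.3 ± 3.39 for CDT1A, and ICU2, the catalytic subunit of polymerase alpha, was at 4.38 ± 1.01. The means ± SD of PCNA1, PCNA2 and RNR1 overlapped. These genes were measured in the same libraries, and their differences within a library were not tested.

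The 4 WT libraries stood apart from one another in these genes, and this spread lies under every comparison with WT. Relative to the WT mean, the median log2 difference over the 35 genes was 0.45 in WT replicate 1, 0.15 in replicate 2, -0.19 in replicate 3 and -0.40 in replicate 4. All 35 genes were above the WT mean in replicate 1, and 29, 2 and 0 were above it in replicates 2, 3 and 4. MCM7, also known as PROLIFERA, had the widest WT span, at 74.6, 60.9, 40.3 and 31.5 CPM in replicates 1 to 4, which is 2.37-fold. DPB, a dimer partner of the E2F factors, had the narrowest, at 22.2, 21.7, 22.1 and 21.4 CPM, or 1.04-fold. Replicate 1 was highest and replicate 4 lowest for 27 of the 35 genes (77.1%), against 4803 of 20947 loci (22.9%).

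The mutant libraries varied less among themselves. The median coefficient of variation over the 35 genes was 27.2% in WT, 9.24% in d14-7, 7.03% in the ckx3 ckx5-labelled libraries and 12.4% in scl28, and over all loci tested it was 13.0%, 8.61%, 7.91% and 10.1%. The median log2 difference from the WT mean was 0.32 to 0.56 in the d14-7 libraries, 0.24 to 0.38 in the ckx3 ckx5-labelled ones and 0.13 to 0.43 in scl28. WT replicate 1, at 0.45, therefore lay among the mutant libraries, and WT replicates 3 and 4 lay below all of them. The WT mean was the lowest of the 4 group means for 30 genes and the highest for 0. The d14-7 mean was the highest for 23, and the means of the ckx3 ckx5-labelled libraries and of scl28 for 6 each.

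**Figure D1:**
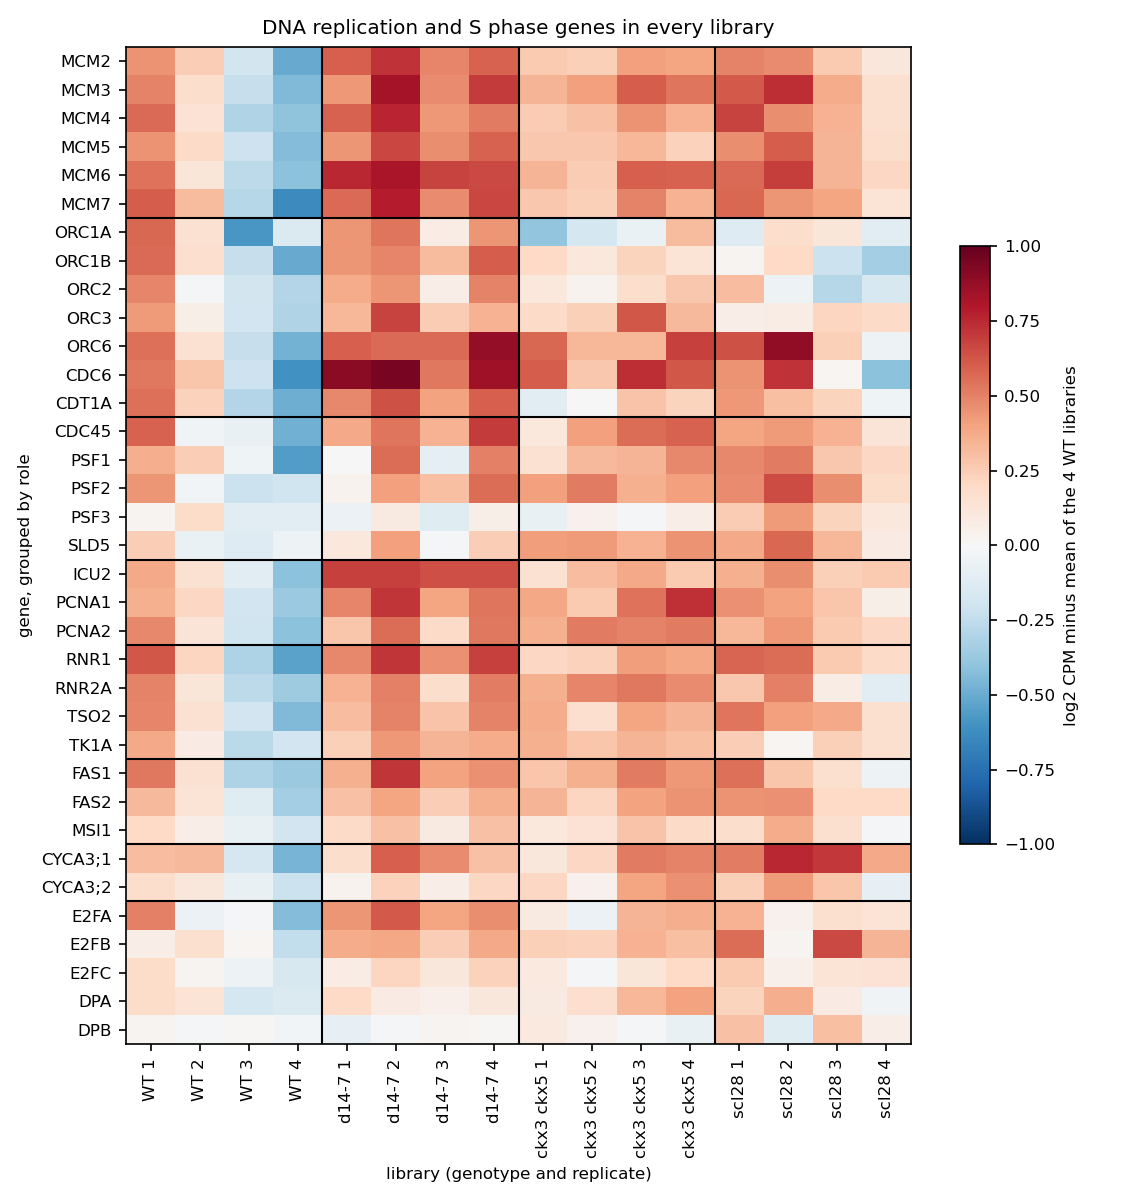
Each cell shows the log2 CPM of 1 gene (rows, grouped by role) in 1 library (columns, grouped by genotype) minus the mean of the 4 WT libraries, on a colour scale from blue (lower) to red (higher). WT replicate 1 resembles the mutant libraries, with a median of 0.45, while WT replicate 4 is blue throughout, with a median of -0.40. The DPB row is nearly white in WT, d14-7 and ckx3 ckx5 and runs from -0.12 to 0.30 in scl28.

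The first comparison asked how d14-7 differed from WT. D14 is the receptor of strigolactone, a hormone that restrains branching. In d14-7, 19 of the 35 genes rose and 0 fell by edgeR's quasi-likelihood test at an adjusted p under 0.05, where 38.7% of all loci were called, 18.1% higher and 20.6% lower. The median log2 fold change was 0.37, against -0.01 over all loci, and 33 of the 35 genes had a positive value. At an unadjusted p under 0.05, 26 genes were higher and 0 lower, where 10200 of 20947 loci passed in either direction. DESeq2 called 22 higher and 0 lower. Because the tissue was sequenced in bulk, more cells of a type and more RNA per cell cannot be told apart.

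Gene positions are those of TAIR10.1. The MCM genes rose as a whole class, all 6 of 6, with log2 fold changes of 0.51 to 0.69. MCM6 (chr5:18006212-18010667, minus strand) stood at 35.7, 26.6, 20.4 and 18.4 CPM in WT replicates 1 to 4 and at 41.3, 43.2, 39.2 and 38.7 CPM in d14-7. Every d14-7 library lay above every WT library, the nearest being WT replicate 1. The log2 fold change of MCM6 was 0.69 ± 0.16 (SE, edgeR adjusted p = 0.00488). MCM2, the only other MCM gene without overlap between the groups, was at 58.3, 50.5, 37.5 and 30.003 CPM in WT and 64.6, 70.5, 59.9 and 64.2 CPM in d14-7 (0.56 ± 0.15, edgeR adjusted p = 0.01003). MCM7 overlaps AT4G02050 by 437 bases on the opposite strand, and that gene was lower in d14-7 (-0.66, edgeR adjusted p = 0.000421). The library kit is not a directional one, and reads from the overlap cannot be assigned to either gene.

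Of the 7 licensing genes 4 rose in d14-7. CDC6 (chr2:12689171-12693121, plus strand), which helps to load the helicase, had the largest fold change of the set. Its level was 5.92, 4.95, 3.53 and 2.66 CPM in WT and 7.67, 7.92, 5.89 and 7.37 CPM in d14-7. The d14-7 replicate 3 lay just below WT replicate 1, and the other d14-7 libraries were above all WT libraries. The log2 fold change of CDC6 was 0.77 ± 0.24 (edgeR adjusted p = 0.0208), and its adjusted p was 0.0684 without WT replicate 3, 0.0704 without WT replicate 4 and 0.0551 without d14-7 replicate 2. ORC6 rose by 0.62 ± 0.21 (edgeR adjusted p = 0.0301), CDT1A by 0.48 ± 0.17 (0.0411) and ORC3 by 0.39 ± 0.14 (0.0401). The remaining subunits ORC1A, ORC1B and ORC2 had values of 0.34, 0.42 and 0.33 that did not pass.

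ICU2 (chr5:26776953-26786431, plus strand) gave the lowest adjusted p of the set. It stood at 32.2, 27.5, 22.9 and 18.6 CPM in WT and at 39.9, 39.8, 38.7 and 38.7 CPM in d14-7, where its 4 libraries lay within 1.03-fold of each other. Every d14-7 library lay above every WT library. ICU2 rose by 0.64 ± 0.12 (edgeR adjusted p = 0.000994), and without each library in turn its adjusted p stayed between 2.11e-05 and 0.00500. ICU2 contains AT5G67110 on the opposite strand over 1326 bases, and AT5G67110 was at 7.87 ± 1.06 CPM in WT and 7.65 ± 0.947 in d14-7.

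PCNA1 (chr1:2263037-2264553, plus strand), a sliding clamp gene, stood at 62.3, 56.0, 42.4 and 37.5 CPM in WT and 68.0, 79.8, 63.8 and 70.3 CPM in d14-7, with the groups apart by a narrow margin. It rose by 0.51 ± 0.14 (edgeR adjusted p = 0.0120). PCNA2 (chr2:12649906-12651753, minus strand) was at 64.0, 50.2, 39.9 and 34.4 CPM in WT and 55.6, 67.4, 52.3 and 66.0 CPM in d14-7, so that WT replicate 1 lay within the mutant range, and its value of 0.36 ± 0.14 did not pass (edgeR adjusted p = 0.0557). The coding sequences of this pair are 85.6% identical with a longest shared run of 41 bases, and the ratio of PCNA1 to PCNA2 was 0.887 to 1.22 over the 16 libraries.

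The remaining classes moved in part. CDC45 was the single gene of 5 in the CDC45 and GINS class that rose (0.45 ± 0.17, edgeR adjusted p = 0.0488), and the GINS genes lay between -0.01 (PSF3) and 0.32 (PSF2). RNR1 rose by 0.52 ± 0.18 (edgeR adjusted p = 0.0354) and TK1A, a thymidine kinase, by 0.33 ± 0.11 (0.0267), while the small subunits RNR2A and TSO2 had 0.35 and 0.36 and did not pass. FAS1 and FAS2, which encode the larger subunits of chromatin assembly factor 1, rose by 0.45 ± 0.17 and 0.31 ± 0.12 (edgeR adjusted p = 0.0445 and 0.0471). MSI1, the smallest subunit and also a member of Polycomb complexes, had 0.22 (0.0597). E2FA and E2FB, both activating E2F factors, rose by 0.44 ± 0.15 and 0.35 ± 0.12 (edgeR adjusted p = 0.0302 and 0.0342). The repressive factor E2FC had 0.16, DPA had 0.11 and DPB had -0.01, and neither CYCA3 gene passed.

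The count for d14-7 rested on the WT libraries in use. It was 30 of 35 without WT replicate 1, 17 without WT replicate 2 and 5 without either WT replicate 3 or WT replicate 4, and 14, 6, 19 and 8 without d14-7 replicates 1, 2, 3 and 4. All loci called in either direction also moved, from 8101 to 10355 without WT replicate 1 and to 5026 without WT replicate 4. The genes ICU2, MCM2, MCM5, MCM6 and PCNA1 passed with each of the 8 libraries left out in turn, and the other 14 of 19 lost the call without WT replicate 3 and also without WT replicate 4, with an adjusted p of up to 0.163 over all omissions. In 6 genes (E2FB, ICU2, MCM2, MCM6, ORC6 and PCNA1) every d14-7 library lay above every WT library. The share of all loci that lay apart in this way was not counted, so this number is a description only. With only these 2 genotypes in the model 6 genes passed.

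**Figure D2:**
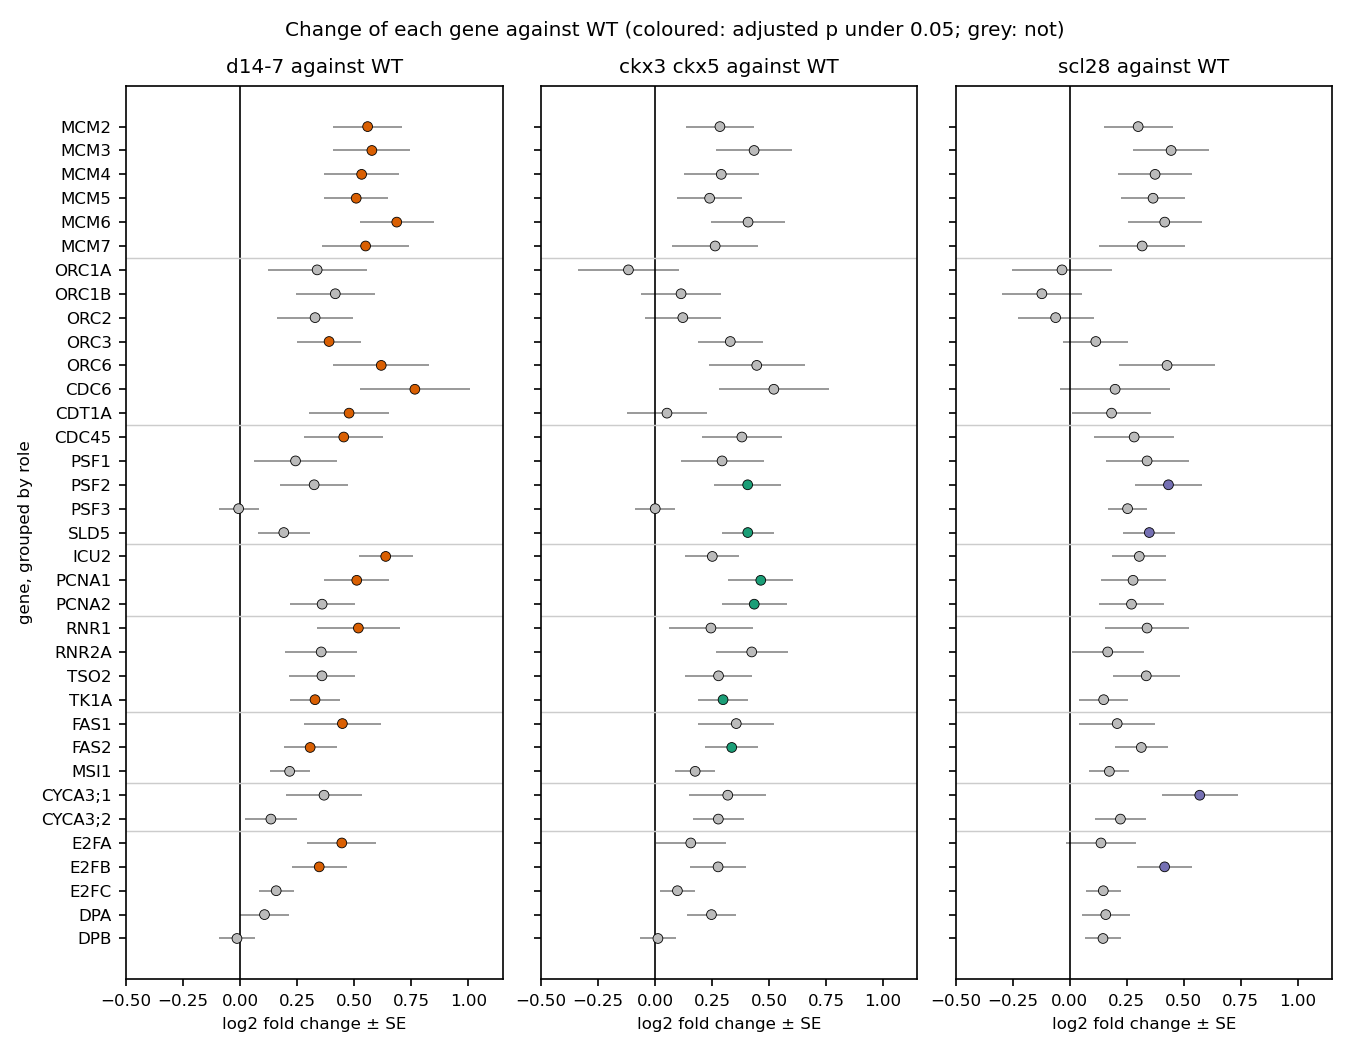
Points are log2 fold changes against WT and bars their SE for each of the 35 genes (rows, grouped by role), with 1 panel per mutant genotype; coloured points have an edgeR adjusted p under 0.05. Nearly all points lie right of 0 in the 3 panels, and 19, 6 and 4 of them are coloured for d14-7, ckx3 ckx5 and scl28.

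The second comparison set the ckx3 ckx5-labelled libraries against the same WT libraries, so that the mutant comparisons with WT are not independent of each other. CKX enzymes break down cytokinin, a hormone that promotes division. Of the 35 genes 6 rose and 0 fell (edgeR adjusted p under 0.05), a share of 17.1%, where 29.6% of all loci were called, 13.6% higher and 16% lower. The median log2 fold change was 0.28 (0.01 over all loci) and 34 genes had a positive value. At an unadjusted p under 0.05, 17 genes were higher and 0 lower, where 8566 of 20947 loci passed in either direction. DESeq2 called 8 higher and 0 lower.

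SLD5 (chr5:19866231-19868877, plus strand), a subunit of the GINS complex, gave the lowest adjusted p in this comparison. It was at 10.7, 8.62, 8.24 and 8.70 CPM in WT and 12.1, 12.1, 11.5 and 12.3 CPM in the ckx3 ckx5-labelled libraries, and the groups did not overlap. The log2 fold change was 0.41 ± 0.11 (edgeR adjusted p = 0.0130), with an adjusted p of 0.00238 to 0.0452 when each library was left out. PSF2, another GINS subunit, rose by 0.41 ± 0.15 (edgeR adjusted p = 0.0482).

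Both clamp genes rose in the ckx3 ckx5-labelled libraries. PCNA1 was at 63.5, 58.2, 70.9 and 80.4 CPM in them, where replicate 2 lay below WT replicate 1, and its log2 fold change was 0.46 ± 0.14 (edgeR adjusted p = 0.0222). PCNA2 was at 58.7, 65.6, 64.5 and 65.7 CPM, where replicate 1 lay below WT replicate 1 and the other libraries were above all of WT, and it rose by 0.44 ± 0.14 (edgeR adjusted p = 0.0298). PCNA2 overlaps AT2G29560 by 279 bases on the opposite strand, and AT2G29560 also rose, by 0.23 (edgeR adjusted p = 0.00458). TK1A rose by 0.30 ± 0.11 (edgeR adjusted p = 0.0479) and FAS2 by 0.34 ± 0.12 (0.0382). None of the MCM or licensing genes passed: the MCM genes lay between 0.24 and 0.43 and the licensing genes between -0.12 (ORC1A) and 0.52 (CDC6).

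The count of 6 became 25 without WT replicate 1, 1 without WT replicate 3, WT replicate 4, or replicate 3 or 4 of the labelled mutant, 3 without its replicate 1 and 4 without its replicate 2 or WT replicate 2. All loci called in either direction went from 6205 to 8354 without WT replicate 1 and to 4682 without WT replicate 4. SLD5 alone kept the call with each library left out. PCNA1 lost it without WT replicate 3 or 4 or mutant replicate 3 or 4 (adjusted p up to 0.0803), PCNA2 without these or mutant replicate 2 (up to 0.0986), and FAS2 without WT replicate 3 or 4 or mutant replicate 1, 3 or 4 (up to 0.125). PSF2 and TK1A passed without WT replicate 1 and with no other omission (up to 0.142 and 0.159). In SLD5 and E2FB every mutant library lay above every WT library, and the share of all loci apart in this way was not counted.

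In scl28, 4 genes rose and 0 fell (edgeR adjusted p under 0.05), which is 11.4% of the 35, where 19.8% of all loci were called, 9.3% higher and 10.5% lower. SCL28 encodes a GRAS transcription factor known to act on G2 and M phase genes. The median log2 fold change was 0.28 (0.01 over all loci), with 32 positive values. At an unadjusted p under 0.05, 12 genes were higher and 0 lower, where 7006 of 20947 loci passed in either direction. DESeq2 called 5 higher and 0 lower.

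CYCA3;1 (chr5:17292952-17295024, plus strand), an A3-type cyclin gene, had the largest change in scl28. It stood at 6.31, 6.38, 4.50 and 3.66 CPM in WT and 7.27, 8.60, 8.32 and 6.63 CPM in scl28, and every scl28 library lay above every WT library. Its log2 fold change was 0.57 ± 0.17 (edgeR adjusted p = 0.0248). CYCA3;2 had 0.22 and did not pass (edgeR adjusted p = 0.177).

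PSF2 (chr3:3972180-3974440, minus strand) was at 7.93, 5.74, 5.03 and 5.06 CPM in WT and 8.12, 9.22, 8.08 and 6.63 CPM in scl28, with replicate 4 inside the WT range. It rose by 0.43 ± 0.15 (edgeR adjusted p = 0.0488). E2FB (chr5:7360535-7364505, plus strand) was at 6.83, 7.27, 6.59 and 5.46 CPM in WT and 9.61, 6.64, 10.3 and 8.23 CPM in scl28, where replicate 2 fell within WT and the other 3 lay above it. Its log2 fold change was 0.42 ± 0.12 (edgeR adjusted p = 0.0235). SLD5 rose by 0.35 ± 0.11 (edgeR adjusted p = 0.0402), and with PSF2 it made up the pair of genes that passed against WT in both scl28 and the ckx3 ckx5-labelled libraries.

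The MCM genes of scl28 lay between 0.30 and 0.44 with adjusted p of 0.0731 to 0.259, and the licensing genes between -0.12 (ORC1B) and 0.43 (ORC6). The scl28 count of 4 became 22 without WT replicate 1, 3 without WT replicate 2, 0 without WT replicate 3, WT replicate 4 or scl28 replicate 3, and 1, 2 and 8 without scl28 replicates 1, 2 and 4. All loci called in either direction went from 4155 to 5674 without WT replicate 1 and to 2890 without WT replicate 3. None of the 4 calls held with every library left out in turn. CYCA3;1 lost its call without WT replicate 3 or 4 or scl28 replicate 2 or 3 (adjusted p up to 0.0773), and E2FB without WT replicate 3 or 4 or scl28 replicate 1 or 3 (up to 0.0861). PSF2 and SLD5 kept theirs without WT replicate 1 or scl28 replicate 4 and lost it with any other omission (up to 0.141 and 0.127).

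**Figure D3:**
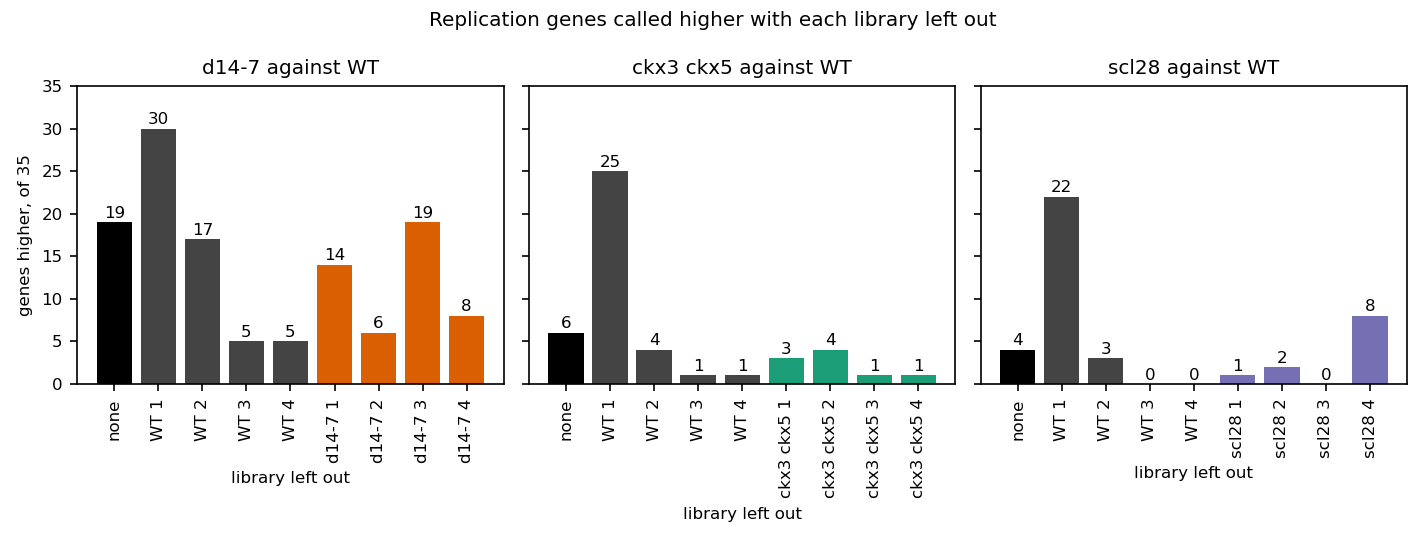
Bars give the number of the 35 genes called higher against WT (edgeR adjusted p under 0.05) with all libraries (black) and with 1 library left out (dark grey for WT, coloured for the mutant), in 1 panel per mutant genotype. Leaving out WT replicate 1 raised the counts to 30, 25 and 22, and leaving out WT replicate 3 or 4 lowered them to 5, 1 and 0. All loci called, which the bars do not show, also rose without WT replicate 1, to 10355, 8354 and 5674.

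Side by side, 3 genes (PCNA1, TK1A and FAS2) passed against WT in d14-7 and in the ckx3 ckx5-labelled libraries, 1 gene (E2FB) in d14-7 and scl28, and 15 in d14-7 without passing in the other mutants. PCNA2 passed in the ckx3 ckx5-labelled libraries alone, CYCA3;1 in scl28 alone, and 12 genes in none. None was called in opposite directions. A pass in one mutant and not in another does not show a difference, which was tested directly between the mutants.

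In the fit of all libraries few of these genes were called between mutants. WT enters these comparisons only through the shared estimate of spread, but it varied most. The median coefficient of variation of the 35 genes was 27.2% in WT and 7.03% to 12.4% in the mutants. Models without WT, given below, called more genes higher in d14-7 than in the other mutants. ICU2 was the 1 gene of 35 higher in d14-7 than in the ckx3 ckx5-labelled libraries, with 0 lower, where 36.8% of all loci were called, 17.8% higher and 19% lower. ICU2 was at 27.6, 30.7, 32.3 and 29.7 CPM in the ckx3 ckx5-labelled libraries and 31.6, 34.3, 29.3 and 29.7 CPM in scl28. All 4 d14-7 libraries, at 38.7 CPM or more, lay above these. The difference of d14-7 from the ckx3 ckx5-labelled libraries was 0.39 ± 0.12 (edgeR adjusted p = 0.0171, and 0.0558 without ckx3 ckx5 replicate 1). At an unadjusted p under 0.05, 2 genes were higher and 0 lower, where 9610 of 20947 loci passed in either direction. DESeq2 called 2 and 0.

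Against scl28, ICU2 and ORC1B were higher in d14-7 and PSF3 was lower, where 42.5% of all loci were called, 20% higher and 22.5% lower. The ICU2 difference was 0.33 ± 0.12 (edgeR adjusted p = 0.0319), and it passed without scl28 replicate 2 but with no other library left out (edgeR adjusted p up to 0.0846). With the leaf photosynthesis mean as a covariate none of these 3 calls held, and the differences of ICU2 and ORC1B turned to -0.17 and -0.20. The leaf mean did not overlap between d14-7 and scl28, so that fit cannot tell genotype and leaf level apart. ORC1B and PSF3 are described because of these calls, after their values were seen. ORC1B (chr4:7459609-7462447, minus strand), a subunit of the origin recognition complex, was at 15.2, 15.7, 13.9 and 17.0 CPM in d14-7 and 11.4, 12.8, 9.63 and 8.79 CPM in scl28, without overlap. Its difference was 0.54 ± 0.17 (edgeR adjusted p = 0.0205), while WT, at 16.6, 12.6, 9.48 and 7.86 CPM, was spread over nearly the same span. The adjusted p of ORC1B was 0.0572 without d14-7 replicate 4, 0.0593 without scl28 replicate 3 and 0.0647 without scl28 replicate 4.

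PSF3 (chr1:6584241-6586517, plus strand), a GINS subunit, was the 1 gene higher in scl28 than in the ckx3 ckx5-labelled libraries, with 0 lower, where 24.7% of all loci were called, 13.1% higher and 11.5% lower. At an unadjusted p under 0.05 and by DESeq2 the counts were also 1 and 0. By unadjusted p, 7500 of 20947 loci passed in either direction. PSF3 was at 13.3, 15.0, 13.0 and 12.0 CPM in scl28, 10.6, 11.5, 11.0 and 11.7 CPM in the ckx3 ckx5-labelled libraries and 10.7, 11.8, 10.2 and 11.6 CPM in d14-7. The scl28 libraries lay above those of both other mutants, by the least in replicate 4. The difference was 0.25 ± 0.09 from the ckx3 ckx5-labelled libraries (edgeR adjusted p = 0.0441) and that of d14-7 from scl28 was -0.26 ± 0.09 (0.0244), while scl28 against WT gave 0.25 ± 0.09 (0.0505). PSF3 is uncertain: its coding sequence is 99.6% identical to that of AT3G55490, named a GINS complex protein by RefSeq, and 80.4% of its stretches of 50 bases occur in both. AT3G55490 was at 9.64 ± 0.458 CPM in WT, 10.1 ± 1.21 in d14-7, 9.78 ± 0.262 in the ckx3 ckx5-labelled libraries and 10.3 ± 1.76 in scl28, and it passed in none of the comparisons. The call of PSF3 between scl28 and the ckx3 ckx5-labelled libraries was lost in 7 of 8 fits with a library left out (adjusted p up to 0.129), and that between d14-7 and scl28 in 3 of 8 (up to 0.0778).

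The 95% intervals show what sizes of difference remain possible for the others. Between d14-7 and the ckx3 ckx5-labelled libraries the interval lay within a log2 difference of ± 1 for 35 of 35 genes and within ± 0.5 for 21. Between d14-7 and scl28 these counts were 34 and 16, and between scl28 and the ckx3 ckx5-labelled libraries 35 and 26. The widest upper bound was that of CDC6 between d14-7 and scl28, at 1.07. In 8 genes (MCM2, MCM5, MCM6, ORC1B, CDT1A, ICU2, RNR1 and E2FA) every d14-7 library lay above every ckx3 ckx5-labelled library, and ICU2 alone of them passed. The share of all loci that lay apart in this way was not counted. In a model of the 2 genotypes compared, without WT, 10 genes were higher in d14-7 than in the ckx3 ckx5-labelled libraries and 10 higher than in scl28. The share of all loci in these models is not given here. In the fit of all libraries it was 17.8% and 20% higher.

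**Figure D4:**
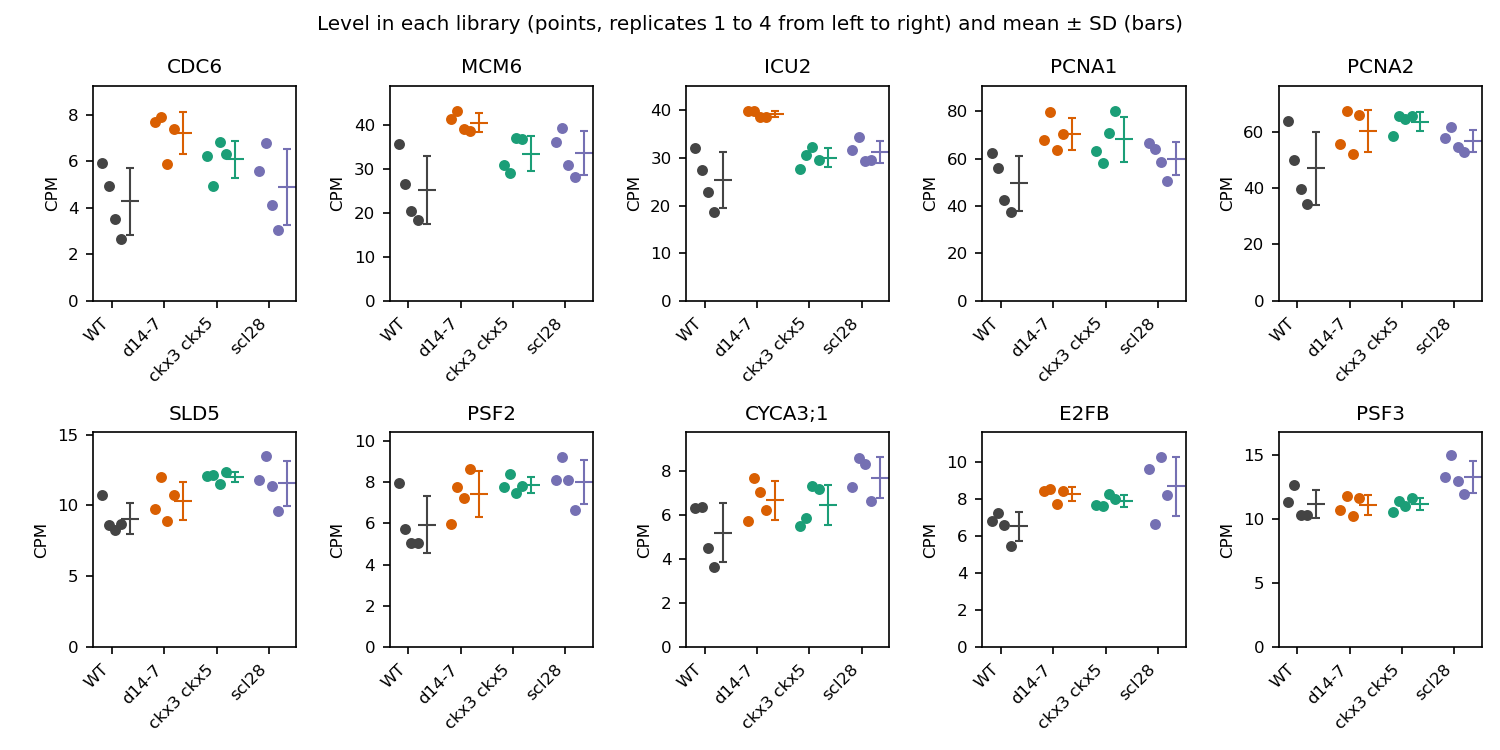
Points are the CPM of 10 genes in each library, replicates 1 to 4 from left to right within a genotype, and bars give the mean ± SD (n = 4); each vertical axis starts at 0. In ICU2 the d14-7 points lie between 38.7 and 39.9 CPM, above all other libraries, and in PSF3 the scl28 points lie between 12.0 and 15.0 CPM.

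Marker genes were read beside the replication genes, since libraries can differ in the tissue they hold. All 18 leaf photosynthesis genes were detected although leaves had been removed, and their summed level was 25773 to 41929 CPM in WT, 34471 to 44009 in d14-7, 28010 to 31994 in the ckx3 ckx5-labelled libraries and 24962 to 26957 in scl28. Against WT, 7 of 18 rose and 0 fell in d14-7, 1 rose and 3 fell in the ckx3 ckx5-labelled libraries, and 0 rose and 3 fell in scl28 (edgeR adjusted p under 0.05). Their mean log2 CPM was 10.66, 10.25, 9.91 and 9.74 in WT replicates 1 to 4, in the same order as the replication genes, whose mean log2 CPM was 4.55, 4.27, 3.96 and 3.79. In scl28 the leaf mean was 9.69 to 9.93 and the replication mean 4.22 to 4.54, and in d14-7 they were 10.35 to 10.75 and 4.44 to 4.67. With the leaf mean as a covariate, 1 replication gene (ICU2) was higher in d14-7 than in WT, 26 in the ckx3 ckx5-labelled libraries and 27 in scl28, and with it the difference of ICU2 between d14-7 and the ckx3 ckx5-labelled libraries was -0.000606.

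Genes of G2 and M phase moved with the replication genes in WT. Their mean log2 CPM over 11 genes was 5.15, 4.88, 4.57 and 4.41 in WT replicates 1 to 4 and 5.07 to 5.43 in the mutant libraries, and 9, 4 and 9 of 11 rose against WT in d14-7, in the ckx3 ckx5-labelled libraries and in scl28 (edgeR adjusted p under 0.05). Shoot meristem and boundary genes, of which 9 of 10 were tested, identify the labelled tissue and summed to 255 to 450 CPM in WT, 266 to 330 in d14-7, 251 to 295 in the ckx3 ckx5-labelled libraries and 282 to 402 in scl28. Of these 9, 1 rose and 3 fell in d14-7 and in the ckx3 ckx5-labelled libraries, and 2 rose in scl28. No gene of the marker lists was at 0 in all libraries. The mean log2 CPM of the meristem and boundary genes was 2.58, 2.82, 2.88 and 2.93 in WT replicates 1, 2, 3 and 4, opposite to the order of the replication genes. Xylem genes summed to 212 to 243 CPM in WT and 267 to 313 in d14-7, 249 to 280 in the ckx3 ckx5-labelled libraries and 170 to 221 in scl28. Floral genes summed to 6.25 to 9.46 CPM in WT, 8.60 to 10.9 in d14-7, 8.17 to 22.4 in the ckx3 ckx5-labelled libraries and 10.6 to 15.9 in scl28, where every library was above every WT library. Of 6 floral genes 1, 4 and 2 rose in these mutants in that order and 0 fell, with median log2 fold changes of 0.14, 1.07 and 0.60. Of 5 root genes 1 was tested, and the list summed to 1.07 to 3.03 CPM in WT, 8.90 to 10.3 in d14-7 and at most 1.62 in the other mutants. The part of these tissues in the levels of the replication genes was not tested. The leaf mean differed with genotype, without overlap between d14-7 and either other mutant. Between those groups a fit with this mean as a covariate therefore cannot tell genotype and leaf level apart. The leaf means of WT, from 9.74 to 10.66, overlapped the range of each mutant. Against WT the counts with this covariate are a description, and the part of leaf level in them was not tested.

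**Figure D5:**
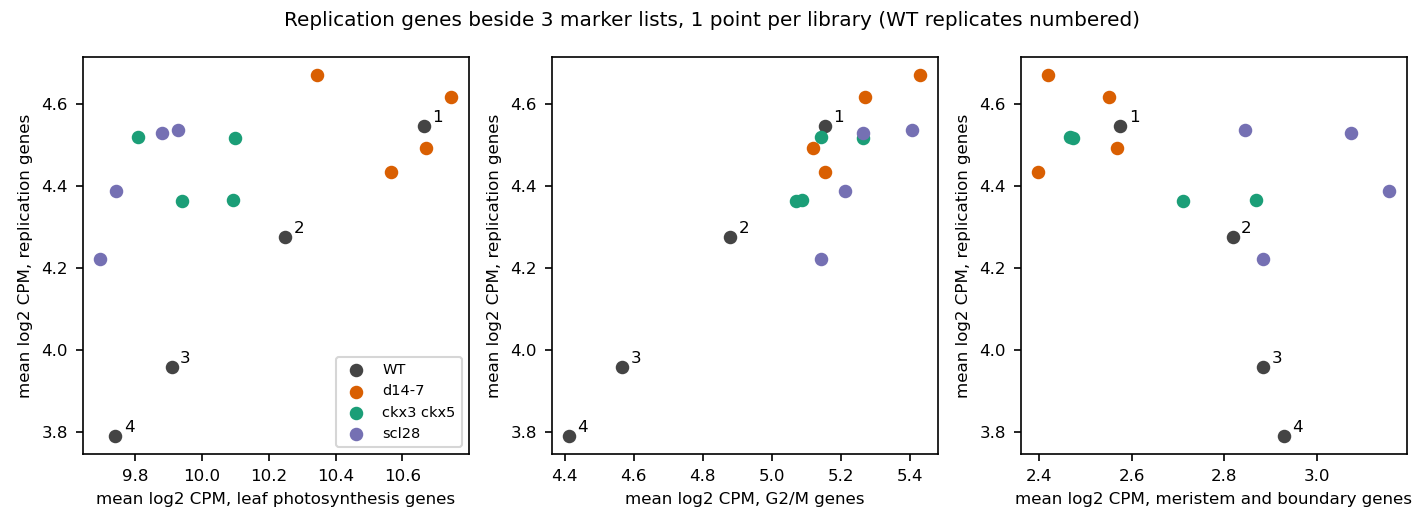
Each point is 1 library, with the mean log2 CPM of the 35 replication genes on the vertical axis and that of leaf photosynthesis, G2/M, or meristem and boundary genes on the horizontal axes; WT points carry their replicate number. WT replicates 1 to 4 run from 4.55 down to 3.79 on the vertical axis, spanning more than the mutant libraries, which lie between 4.22 and 4.67.

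The rest of the replication machinery was read from a list of 55 other genes, all of them tested. In d14-7, 34 of 55 (61.8%, against 18.1% of all loci) rose and 0 fell (edgeR adjusted p under 0.05), with a median of 0.43. The rises took in 7 of 10 polymerase genes, 4 of 6 clamp loader genes, 4 of 9 genes of the single-strand binding protein RPA and 5 of 5 genes of histone H3.1. The largest were TK1B, another thymidine kinase gene, at 0.86 ± 0.22 (edgeR adjusted p = 0.00843), CDT1B, a relative of CDT1A, at 0.77 ± 0.21 (0.0103), and DEL2, an atypical E2F factor, at 0.66 ± 0.24 (0.0396). In the ckx3 ckx5-labelled libraries, 13 of 55 (23.6%, against 13.6% of all loci) rose and 0 fell, with a median of 0.29, led by DEL2 at 1.29 ± 0.24 (edgeR adjusted p = 0.000613), RPA1A at 0.67 ± 0.13 (0.000844) and the clamp loader gene RFC2 at 0.58 ± 0.12 (0.00155). In scl28, 10 of 55 (18.2%, against 9.3% of all loci) rose and 0 fell, with a median of 0.28, and the largest rises were those of 3 histone H3.1 genes, AT5G10400 at 0.59, AT3G27360 at 0.52 and AT5G65360 at 0.45 (edgeR adjusted p = 0.00961, 0.0464 and 0.0280). The coding sequences of the 5 H3.1 genes are 80.3% to 89.5% identical in pairs. The longest run shared by any pair is 59 bases (AT3G27360 and AT5G10400), and how the counting treated such runs is not known. In the order d14-7, ckx3 ckx5 label and scl28, these counts were 43, 45 and 36 without WT replicate 1, 33, 18 and 11 without WT replicate 2, 13, 5 and 2 without WT replicate 3 and 16, 6 and 2 without WT replicate 4. Over omissions of a mutant library they were 18 to 35, 8 to 12 and 2 to 12.

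DEL2 had a larger log2 difference between mutants than any of the 35 genes, the largest of which was 0.57 (CDC6, d14-7 minus scl28). DEL2 was at 4.36, 2.36, 4.00 and 3.48 CPM in the ckx3 ckx5-labelled libraries, 2.11, 2.70, 1.78 and 2.56 CPM in d14-7, 1.33, 1.31, 1.07 and 1.13 CPM in scl28 and 2.24, 1.28, 1.09 and 1.21 CPM in WT. The scl28 libraries lay below those of both other mutants. The difference of scl28 from the ckx3 ckx5-labelled libraries was -1.56 ± 0.24 (edgeR adjusted p = 0.000125), and d14-7 differed by 0.93 ± 0.24 from scl28 (0.00634) and by -0.63 ± 0.23 from the ckx3 ckx5-labelled libraries (0.0388).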

How the data were processed

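RNA-seq data of 16 libraries were used, 4 per genotype, prepared from polyadenylated RNA with a NEBNext Ultra RNA kit, per the labels' protocols (this kit is not a directional one). The authors deposited estimated counts per transcript model, already whole numbers, and a second table of the same models divided by a factor per library, whose unit is a scaled signal; 98.04% of its ratios to the counts lay within 1% of the library's median, and it was not analysed further. TAIR10 and DESeq2 are named in the submitters' processing notes without version, with aligner, counter and strand setting not given in the sources used here. Counts of 41671 models were summed to 33602 loci. All libraries entered 1 edgeR 4.0.16 quasi-likelihood fit (R 4.3.3) with 4 genotype means, trimmed-mean factors and edgeR's expression filter (20947 loci), and adjusted p-values are Benjamini-Hochberg over all loci tested. SE values come from the F statistic. Library totals were 24334925 to 36735056 counts.

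The 35 genes and the other lists were chosen with earlier results of these data known. Values in every library are given for the genes with the 3 largest called changes against WT in each mutant for both PCNA genes and for any gene called in opposite directions (none was), and of the 55 other replication genes the 3 largest called rises and falls per comparison are named. Other genes shown in full were picked after their values were seen. Exon lengths, overlaps and 30-base sites come from RefSeq TAIR10.1, with promoter windows built from its gene starts. The script was tested on simulated data. Alternatives were RLE factors, DESeq2 1.42.0, no filter (31884 loci), a filter of 1 CPM in 8 libraries (18900 loci), only the 2 genotypes compared, the replicate number of the titles as a block, the leaf mean as a covariate, and each library left out in turn. Those for the 55 other replication genes, and a block by the number in each library's own name, were added after the data had been seen. No library was a duplicate of another: between libraries of a group, chi-square per locus was 4.75 to 97.7.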

Additional observations from a re-analysis of the deposited data

Results flagged for a closer look

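Within the groups of 4 libraries, 140 in all, a library far from the other 3 by Dixon's test appeared in 2, where chance alone would give about 7. ORC6 stood at 11.61 CPM in d14-7 replicate 4, while the other d14-7 libraries lay between 9.348 and 9.525 CPM. E2FB stood at 7.737 CPM in d14-7 replicate 3, below the other d14-7 libraries at 8.43 to 8.54 CPM. Both genes were called higher in d14-7 than in WT, ORC6 with an edgeR adjusted p of 0.0866 without replicate 4.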

How the results depend on the processing

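Under RLE factors, counts of called replication genes stayed within 1.5 times of those reported and no call was lost. DESeq2 called 2 genes in place of 1 for d14-7 against ckx3 ckx5. Without a filter the counts of higher genes were 11 for d14-7 against WT, 1 for d14-7 against scl28 and 0 for scl28 against ckx3 ckx5. The stricter filter gave 3 for ckx3 ckx5 and 2 for scl28 against WT, and 4 of the 55 other replication genes for scl28. With only the 2 genotypes in the model, 6, 1 and 0 of the 35 genes were higher than WT in d14-7, ckx3 ckx5 and scl28, and 10 were higher in d14-7 than in either other mutant; the other replication genes gave 9, 6 and 2, and all loci called were 5034 for d14-7 and 2171 for scl28. The cause was not tested.

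With the leaf mean as a covariate the higher genes against WT were 1, 26 and 27 of 35 and 2, 45 and 40 of the 55 others. Between mutants 0 were higher and 2 lower in d14-7 than in ckx3 ckx5, and 0 higher and 3 lower than in scl28. ICU2 then stood at -0.000606 (d14-7 against ckx3 ckx5) and -0.17 (against scl28) and ORC1B at -0.20. The leaf mean itself did not overlap between d14-7 and either other mutant. All loci called were 2301 and 6969 for d14-7 and scl28 against WT, and 4855 and 3700 for d14-7 against ckx3 ckx5 and scl28.

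Leaving out 1 library at a time, the higher genes against WT ranged from 5 to 30, 1 to 25 and 0 to 22 for d14-7, ckx3 ckx5 and scl28. Those between mutants ranged from 0 to 1 (d14-7 against ckx3 ckx5), 0 to 3 (d14-7 against scl28, with 0 to 1 lower) and 0 to 1 (scl28 against ckx3 ckx5). The other replication genes ranged from 13 to 43, 5 to 45 and 2 to 36. All loci called against WT ranged, in the same order, from 5026 to 10355, 4682 to 8354 and 2890 to 5674. No gene of the set fell against WT in any of these fits.

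With the replicate number of the titles as a block, 19, 6 and 4 genes were higher than WT, but not the same genes: CDC45 and ORC3 were lost in d14-7, TK1A and PSF2 in ckx3 ckx5 and PSF2 in scl28, and 2, 2 and 1 others were gained. In d14-7 against scl28, 4 were higher. Same-numbered libraries of different genotypes correlated at -0.276 to 0.342 in their deviations from the group mean, 4 of 24 pairs were over 0.1, and 4 of 16 libraries correlated best with their own number. The libraries' own names carry other numbers, and a replicate block by these was added after the data had been seen. It gave 9, 1 and 3 genes higher than WT (9, 1 and 1 of them among those reported), 0 higher or lower between mutants, 15 other replication genes higher in d14-7, and 4906, 5121 and 3261 loci called for d14-7 against WT, d14-7 against scl28 and scl28 against ckx3 ckx5. By these numbers 16 pairs correlated at -0.276 to 0.189, 2 were over 0.1, and 2 of 15 libraries correlated best with their own number. By neither numbering did every pair correlate above 0.1, so the libraries were not treated as paired.

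Between all genotypes the median SE of the 35 genes was 0.15 on the log2 scale.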

Other observations

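Transcript models add detail for a few of the genes, given as the deposited estimates without a test. E2FA counts fell mainly on 1 of its models, AT2G36010.3, with 73.4% ± 7.5 in WT, 76.6% ± 5.2 in d14-7, 78.8% ± 9.7 in the libraries labelled ckx3 ckx5 and 77.0% ± 4.9 in scl28 (SD, n = 4). FAS1 counts fell on the model AT1G65470.2 for 12.4% ± 7.4 in WT and 17.7% ± 3.4 in d14-7. The PSF3 model AT1G19080.2 held 7.2% ± 3.8 of its counts in WT, 11.6% ± 2.3 in d14-7, 5.4% ± 3.3 in the libraries labelled ckx3 ckx5 and 5.2% ± 1.6 in scl28.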
